A study of Mus musculus with 8 samples.

Results

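The genes described here are 10 regulators of the primitive streak and the mesoderm: the signals Wnt3 and Fgf8, the T-box factors T, Eomes and Tbx6, the homeobox factors Mixl1, Gsc, Evx1 and Lhx1, and the basic helix-loop-helix factor Mesp1. Their chromatin was followed through the accessible regions (peaks) around them, each 201 bp wide. A peak was taken where its centre lay inside the gene's span on mouse assembly GRCm38 or within 50000 bp of it, which gave 142 of the 134407 peaks of the study. Of these, 53 had the gene itself as their nearest protein-coding gene and 14 of those lay inside it, while 89 lay nearer to another gene and are named as such. Tbx6 had no peak of its own, since the 24 peaks around it all lay nearer to one of its neighbours.

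Accessibility was measured by ATAC-seq, an assay that tags open DNA with sequencing adapters through the enzyme Tn5, in wild-type mouse embryonic stem cells of the E14 line grown on gelatin in medium with fetal bovine serum and LIF, the cytokine that holds such cells undifferentiated. Control cultures were compared with cultures given 200 nM of INK128, which inhibits the kinase mTOR, for 24 h, which the study calls paused. There were 4 control and 4 paused libraries of 50000 cells each. The labels do not say whether the libraries came from separate cultures, so p-values measure the spread between these libraries only, which may be technical.

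In the gastrulating embryo, Nodal, Wnt, BMP and Fgf signals act on the epiblast and switch on T-box and homeobox genes at the primitive streak, where cells leave the epiblast and become mesoderm or endoderm. In embryonic stem cells most of these genes are silent or expressed at low levels, and many have promoters rich in CpG. ATAC-seq reports how open a piece of chromatin is and not whether the gene beside it is transcribed.

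Promoter sequence, the 250 bases before and 50 bases after a gene's start in RefSeq on GRCm38.p6, was at hand for 8 of the 10 genes, Mixl1 and Fgf8 being the others. The 4 stretches below are the 250 bases before the start, shown because they hold either the motifs of the pathway or part of a measured peak. The first pair comes from T (chr17:8434173-8434422, plus strand) and Mesp1 (chr7:79793591-79793840, minus strand), with capitals at matches to CTTTGA, the core bound by the TCF and LEF factors of Wnt signalling, and to AGGTGT, the core bound by T-box factors, on either strand.
T: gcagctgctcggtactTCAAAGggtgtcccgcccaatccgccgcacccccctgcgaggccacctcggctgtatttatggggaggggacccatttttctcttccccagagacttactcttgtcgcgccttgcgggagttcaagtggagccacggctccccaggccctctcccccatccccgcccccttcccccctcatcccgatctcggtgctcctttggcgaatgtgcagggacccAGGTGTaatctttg
Mesp1: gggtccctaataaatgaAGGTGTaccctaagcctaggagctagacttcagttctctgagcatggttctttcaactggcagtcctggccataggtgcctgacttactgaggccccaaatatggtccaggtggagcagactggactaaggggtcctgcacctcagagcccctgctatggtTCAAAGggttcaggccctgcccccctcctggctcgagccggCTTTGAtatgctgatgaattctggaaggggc
The other pair comes from Wnt3 (chr11:103773925-103774174, plus strand) and Lhx1 (chr11:84525535-84525784, minus strand), with capitals at the bases covered by the peak at the gene's start.
Wnt3: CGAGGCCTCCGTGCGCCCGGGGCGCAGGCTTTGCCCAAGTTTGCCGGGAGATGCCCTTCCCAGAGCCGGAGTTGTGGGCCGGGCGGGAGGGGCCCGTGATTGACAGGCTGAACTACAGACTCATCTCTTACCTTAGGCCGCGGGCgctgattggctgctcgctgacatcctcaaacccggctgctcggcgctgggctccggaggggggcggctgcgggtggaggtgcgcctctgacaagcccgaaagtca
Lhx1: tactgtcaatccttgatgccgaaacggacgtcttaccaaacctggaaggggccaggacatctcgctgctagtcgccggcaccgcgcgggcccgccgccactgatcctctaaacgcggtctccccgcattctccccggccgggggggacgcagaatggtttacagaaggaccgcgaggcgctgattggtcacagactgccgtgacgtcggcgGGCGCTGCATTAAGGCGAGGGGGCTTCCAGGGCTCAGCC
Over the 300 bases, read on both strands, T and Mesp1 held CTTTGA, a motif found in 16.0% of all 32851 promoter windows of the table. The letters AGGTGT were found in T, Mesp1 and Evx1, against 13.7% of all windows. Both motifs together were found in T and Mesp1 and in 2.58% of all windows. The short Smad box CAGAC, a site of the factors downstream of Nodal, was found in 5 of the 8 genes and in 49.6% of all windows. These are matches of letters and not measured binding sites. CpG dinucleotides numbered 31 in Lhx1, 25 in Gsc, 24 in Wnt3, 17 in T, 12 in Evx1, 10 in Eomes, 7 in Tbx6 and 4 in Mesp1, against a median of 7 over all windows. Peaks covered 145 bases of the Wnt3 window and 89 of the Lhx1 window, and none of the other 6.

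Reads in peaks numbered between 4434037 and 7238935 in 7 libraries and 21161767 in control replicate 1. All values are scaled reads, the reads in a peak divided by 1 factor per library, and a value of 3 reads was 1.04 in control replicate 1 and up to 5.08 in the others. Changes are paused minus control on the scale log2(scaled reads + 1), which understates the change of weak peaks, and a peak is called where the limma-trend test over all 127402 peaks with a mean of at least 10 gave a Benjamini-Hochberg adjusted p under 0.05. Over all tested peaks the median was 0.10, a shift against which each change has to be read. The labelled cell type was checked on marker genes, through the summed value of the peaks nearest to them. The 7 stem cell markers, Pou5f1 and Nanog among them, summed to between 8424 and 8841 in control and between 9498 and 10860 in paused libraries. Of the 7, 6 were called higher in limma-trend, where 29.6% of all gene sums were called higher and 1.40% lower. The 1 not called was Pou5f1 (log2 change 0.16, adjusted p = 0.0994). The changes of the 6 ran from 0.13 (Sox2) to 0.33 (Zfp42), where the median of all gene sums was 0.15. All marker calls are on the scale of the deposited values only. The 4 primitive endoderm markers summed to 1525 to 1728 and 1651 to 1888, the 4 trophoblast markers to 2296 to 2376 and 2281 to 2560, and the 3 fibroblast markers to 1161 to 1336 and 1196 to 1268, with 0 genes called in each (at an unadjusted p under 0.05, 3 primitive endoderm genes and 0 of the others). The 3 neural markers summed to 1836 to 2044 and 2080 to 2293, with 1 gene called higher, Sox1. Markers of the other cell types were thus not at 0. The strongest peak within 2 kb of a gene end had 37.8 (Esrrb) to 344 (Pou5f1) scaled reads at the stem cell markers. Of the neural markers, Neurog2 had 304 and Sox1 150, and Pax6 had no such peak. The other markers had 22.05 (Elf5) to 198 (Cdx2), and Gata4 had none. The part of other cell types in the values below was not tested.

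Paused cells did not show 1 common direction around the 10 genes. Of the 142 peaks, 140 passed the filter on low values, and 15 were called higher and 8 lower in paused cells. Those are 10.7% and 5.71% of the 140, where 11.0% of all tested peaks were called higher and 2.91% lower. The median change was 0.043, with single peaks between -1.18 and 1.08, and 58 of the 140 lay above the median of all peaks. The groups did not overlap at 29 peaks, or 20.7%, against 17.4% of all tested peaks. After TMM scaling, which sets the libraries to a common trimmed mean of ratios, 7 peaks were called higher and 8 lower, where the shares over all peaks were 5.99% and 4.15%. Among the 53 peaks nearest to the genes themselves, 51 were tested, and 5 were called higher and 4 lower, with a median of 0.053. Among the 89 nearer to another gene, 10 were called higher and 4 lower, with a median of 0.035. The authors' deposited table lists 19 of the 23 called peaks with an FDR under 0.05, all 23 with the same sign, from the same values.

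**Figure D1:**
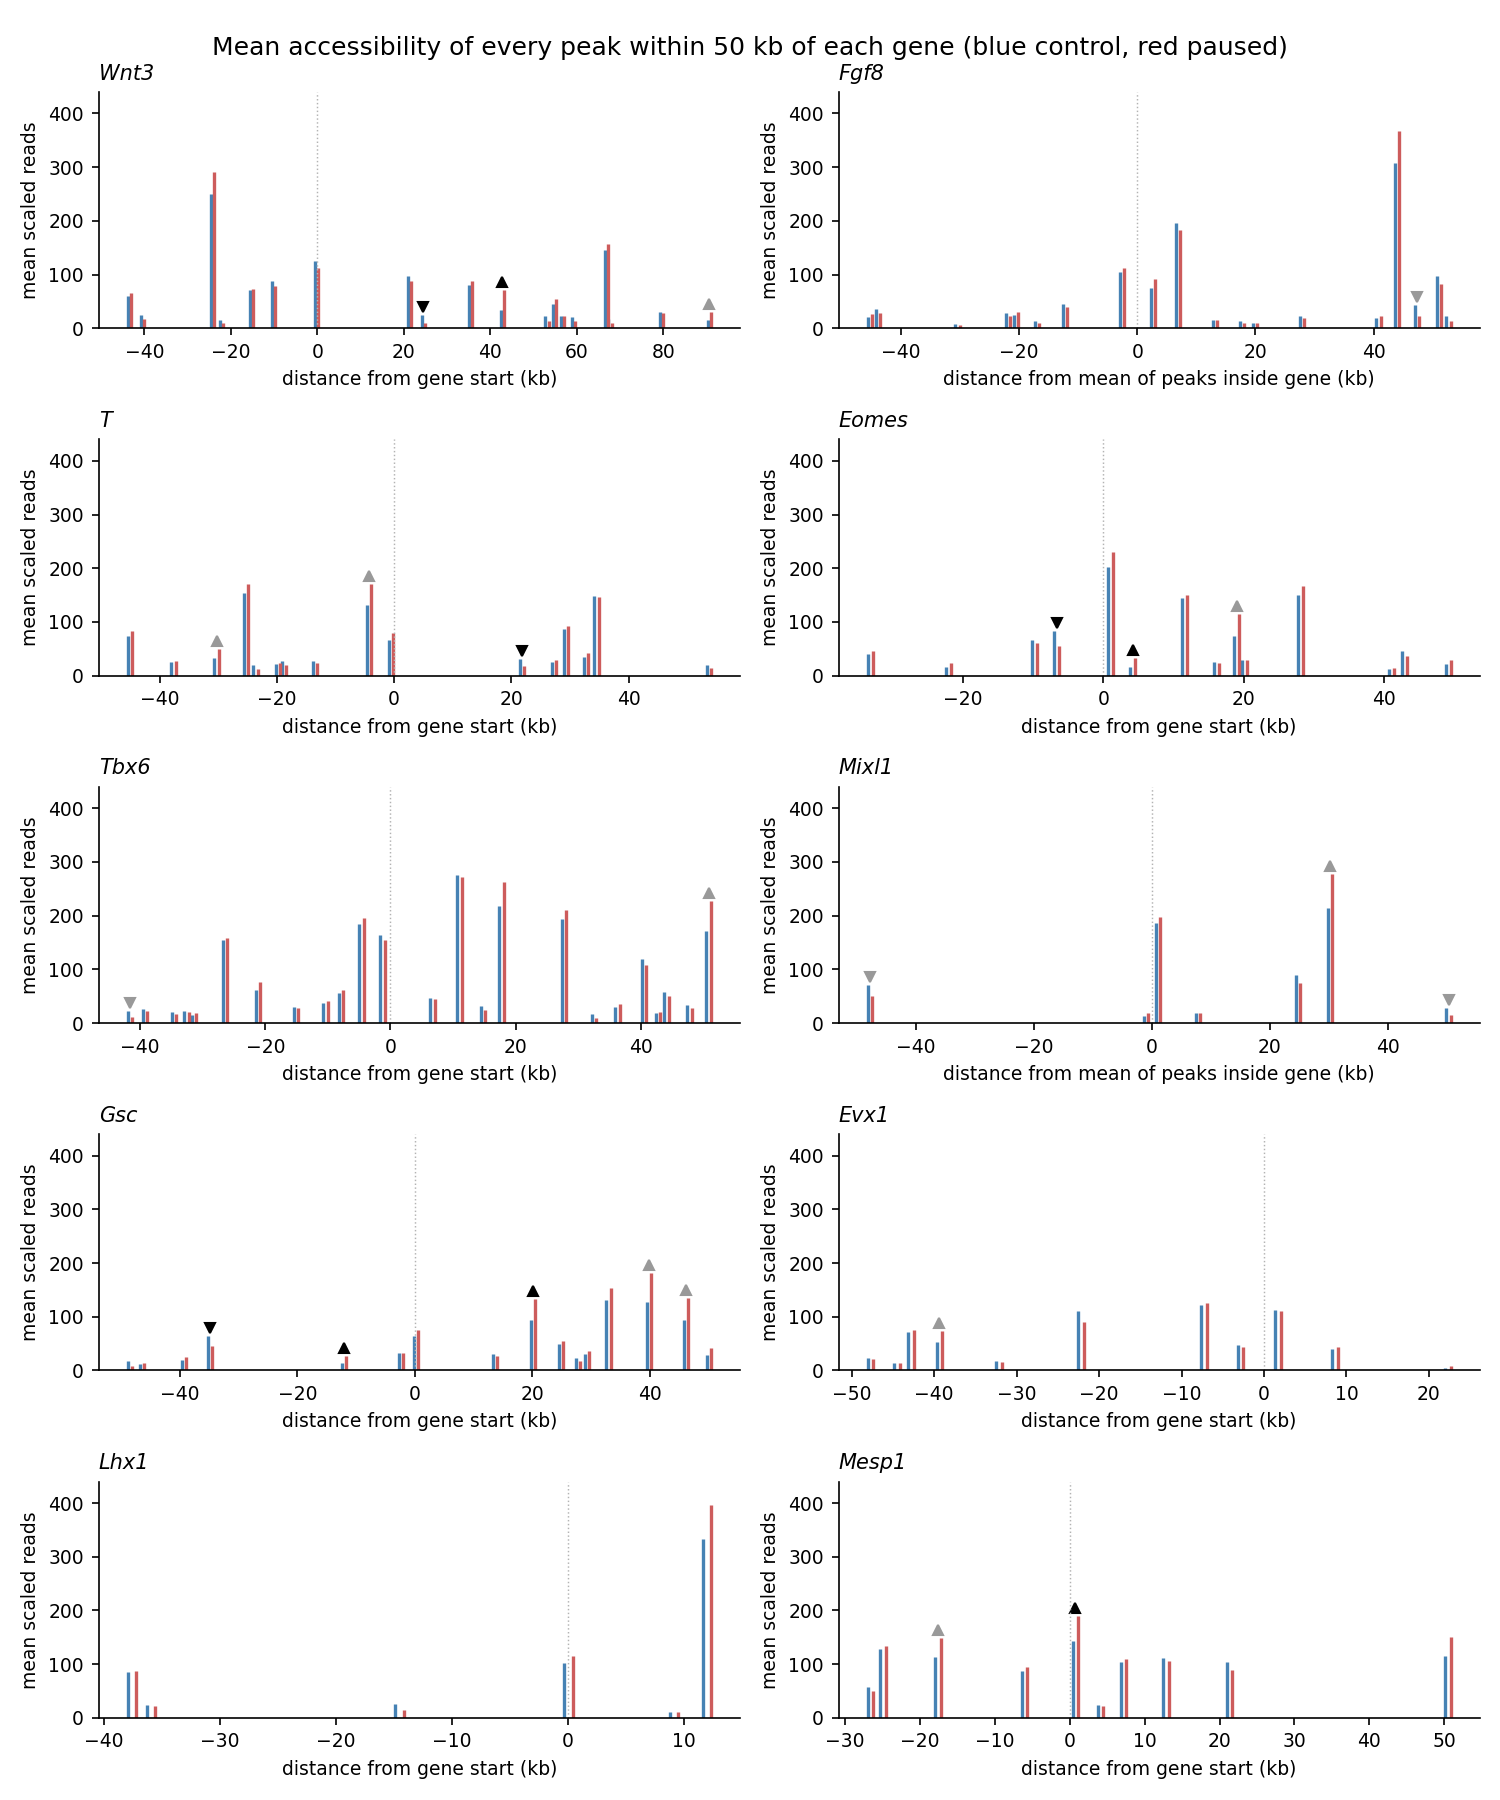
Mean scaled reads (y axis) of every peak within 50 kb of each of the 10 genes, by distance from the gene's start in kb (x axis); for Fgf8 and Mixl1, whose start is not given in the sources used here, by distance from the mean position of the peaks inside the gene. Blue bars are the mean of 4 control and red bars the mean of 4 paused libraries, set side by side; triangles mark called peaks, pointing up where higher and down where lower in paused cells, black where the gene is the nearest and grey where another gene is nearer. Triangles mark 23 of the 140 tested peaks (16.4%) and 1 of the 10 peaks taken for the gene starts, that of Mesp1.

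Of the 10 peaks taken for the gene starts, 1 was called, higher, that of Mesp1. For all tested peaks the shares called were 11.0% higher and 2.91% lower, and for those with a mean of at least 50, as all 10 have, 18.7% and 1.35%. For each gene the peak nearest to its start was taken, or nearest to an end of the gene for Mixl1 and Fgf8. The start of these genes is not given in the sources used here, so that peak may lie at the far end. The Fgf8 peak near the other end of the gene, chr19:45742111-45742311, was not called either (log2 change 0.30, limma-trend adjusted p = 0.139). All 10 lay between the 74.4th and the 94.9th percentile of strength among tested peaks. Their changes ran from -0.16 to 0.42 with a median of 0.14, and 6 of 10 were above the median of all peaks. The adjusted p of the 9 uncalled peaks among these 10 lay between 0.215 and 0.935 in limma-trend. After TMM scaling 6 of the 10 changes were above 0, against 7 before it.

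**Figure D2:**
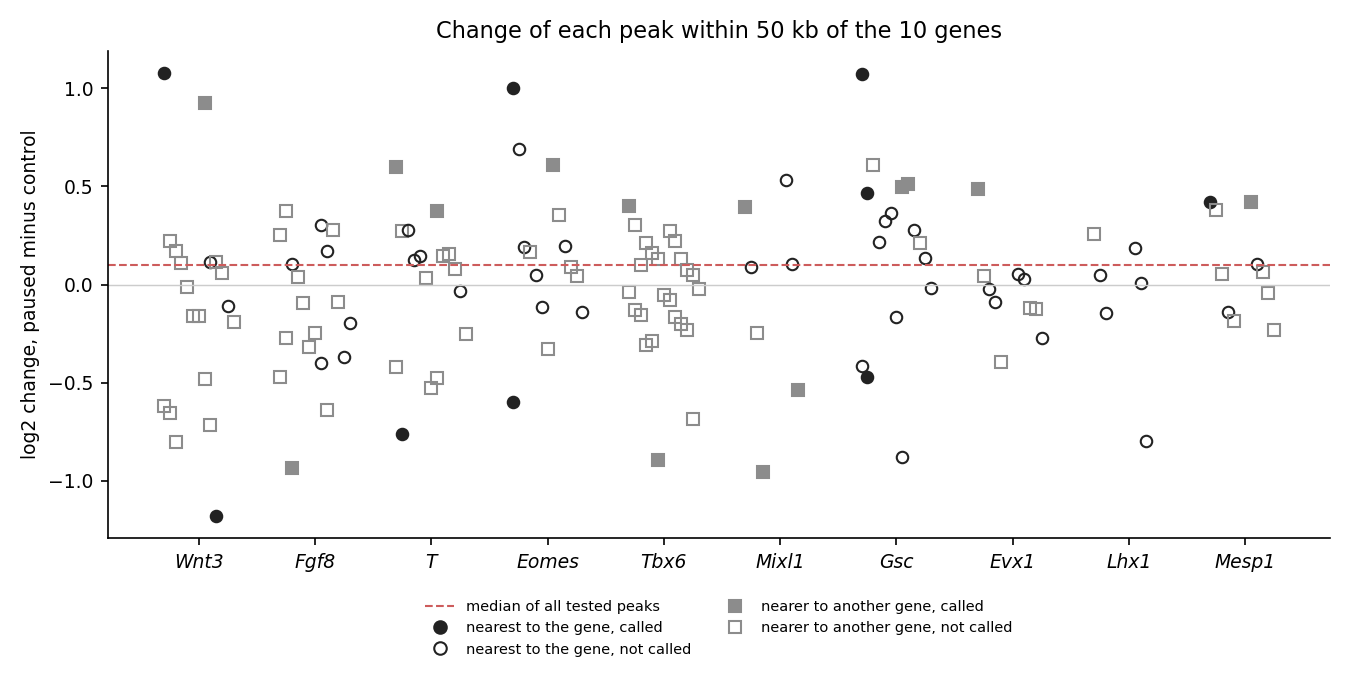
Log2 change of each of the 140 tested peaks (y axis, paused minus control) for the 10 genes (x axis). Black circles are peaks nearest to the gene and grey squares peaks nearer to another gene, filled where called; the dashed line is the median of all tested peaks, 0.10. Wnt3, Eomes and Gsc each have filled circles on both sides of 0, and Evx1, Lhx1, Fgf8 and Mixl1 have none.

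Wnt3 encodes a secreted Wnt ligand without which the primitive streak does not form. Inside the gene, 1 peak rose and another fell. The peak at chr11:103816794-103816994, 42719 bp after the start and 1127 bp from the gene's far end, had 39.8, 29.9, 30.5 and 33.8 scaled reads in control replicates 1 to 4 and 71.5, 77.3, 59.0 and 79.7 in paused replicates 1 to 4. Every paused library was above every control library, and the mean rose from 33.5 ± 4.53 to 71.9 ± 9.26 (SD, n = 4). The log2 change was 1.08 with a standard error of 0.17 (limma-trend adjusted p = 3.53e-05), the smallest adjusted p among the 53 peaks nearest to the genes. The peak at chr11:103798584-103798784, 24509 bp after the start, had 23.5, 32.2, 20.3 and 19.1 in control and 9.23, 11.0, 12.4 and 7.03 in paused libraries. Here every paused library was below every control library, and the log2 change was -1.18 with a standard error of 0.30 (adjusted p = 0.00607). Both calls held under every alternative run in which the peak was tested, including each library left out in turn.

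Neither of the other peaks of Wnt3's own was called. The peak at chr11:103809512-103809712 had 80.5 ± 7.25 in control and 88.0 ± 15.9 in paused libraries (SD, n = 4), a log2 change of 0.11 (adjusted p = 0.643). The strongest of the gene's own, at chr11:103795453-103795653, had 96.4 ± 17.9 in control and 88.4 ± 6.57 in paused libraries (SD, n = 4), a log2 change of -0.11 (adjusted p = 0.652). The peak at the start, chr11:103773869-103774069, capitalised in the sequence above, counts as nearer to another gene, since it lies 206 bp before the start of Wnt3 inside the span of the neighbouring Wnt gene Wnt9b. It had 128, 128, 112 and 135 in control and 110, 106, 133 and 102 in paused libraries. The groups overlapped, with a log2 change of -0.16 and an adjusted p of 0.424. Of the 15 peaks in the window nearer to another gene, this one included, 1 was called. It lay inside Nsf, an ATPase of vesicle fusion, at chr11:103864654-103864854, and rose from 15.5 ± 4.86 to 29.4 ± 3.87 (SD, n = 4), a log2 change of 0.93 (adjusted p = 0.0128). That call was lost with DESeq2 and without control replicate 1 (adjusted p = 0.0594) or paused replicate 4 (0.0598), within a range of 0.00477 to 0.0691 over 15 alternatives.

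Fgf8 encodes the Fgf ligand that cells need to migrate away from the streak. None of its own 7 peaks was called in limma-trend; of the 6 tested, 1 had an unadjusted p under 0.05 and 0 were called by edgeR or DESeq2. The peak nearest to a gene end, chr19:45736929-45737129, lay inside the gene and had 99.2, 106, 94.8 and 118 in control and 95.8, 118, 106 and 131 in paused libraries. The groups overlapped, with a log2 change of 0.10 (adjusted p = 0.649). Another peak inside the gene, at chr19:45742111-45742311, did not overlap between the groups, with means of 74.6 and 92.5, but was not called (log2 change 0.30, adjusted p = 0.139). In the wider window 1 peak fell, at chr19:45786906-45787106, 44065 bp from the gene and nearest to Oga, the enzyme that removes O-GlcNAc from proteins. It had 41.5, 52.5, 40.6 and 35.3 in control and 17.3, 33.1, 18.6 and 19.9 in paused libraries. The log2 change was -0.94 with a standard error of 0.22 (adjusted p = 0.00345), and the call held under every alternative run in which the peak was tested.

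T, also called brachyury, is the T-box factor of the streak, the posterior mesoderm and the notochord. No peak lay inside it. The peak nearest to its start, chr17:8433773-8433973, lay 550 bp before the start, inside the span of the gene model LOC115486424. It had 59.5, 66.9, 64.3 and 72.0 in control and 79.6, 66.2, 80.7 and 93.7 in paused libraries. The ranges overlapped through paused replicate 2, and the log2 change of 0.27 was not called (adjusted p = 0.215). Of the 5 peaks nearest to T, all beyond its far end, the strongest, chr17:8468820-8469020, had 149 ± 12.7 in control and 147 ± 25.4 in paused libraries (SD, n = 4), a log2 change of -0.035 (adjusted p = 0.887).

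The 1 called peak of T fell, and its groups overlapped. At chr17:8456140-8456340, 21817 bp after the start, the values were 30.1, 29.9, 18.6 and 42.6 in control and 17.3, 11.0, 21.7 and 18.8 in paused libraries. Control replicate 3 lay within the paused range. The log2 change was -0.76 with a standard error of 0.26 (adjusted p = 0.0452). The call was lost with DESeq2 and when any 1 of 6 libraries was left out, control replicates 1 (adjusted p = 0.102), 2 (0.0841) and 4 (0.189) and paused replicates 1 (0.0668), 2 (0.149) and 4 (0.0643), within a range of 0.00839 to 0.189 over 15 alternatives. The lowest value of this peak rested on 7 reads.

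Before T, 2 peaks nearer to other gene models rose. The peak at chr17:8430023-8430223, 4300 bp before the start and nearest to LOC115486424, had 137, 135, 118 and 135 in control and 170, 159, 164 and 189 in paused libraries, without overlap. The log2 change was 0.37 with a standard error of 0.12 (adjusted p = 0.0293). It was lost with TMM scaling, a loess correction on peak strength, edgeR and DESeq2, and without control replicate 3 (adjusted p = 0.0939) or paused replicate 4 (0.114), within a range of 0.0167 to 0.381 over 16 alternatives. The peak at chr17:8404040-8404240, inside T2, rose from 32.6 ± 10.1 to 48.8 ± 7.67 (SD, n = 4), with overlapping groups, a log2 change of 0.60 and an adjusted p of 0.0378. TMM scaling, loess correction and DESeq2 ended that call, as did 6 of the 8 fits with 1 library left out, those without control replicates 1 (adjusted p = 0.131), 2 (0.0548) and 3 (0.113) and paused replicates 1 (0.0873), 3 (0.0515) and 4 (0.133).

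Eomes is a T-box factor required for cells to leave the epiblast and for definitive endoderm and cardiac mesoderm. It had 8 peaks of its own, and as at Wnt3, 1 rose and 1 fell. Inside the gene, 4204 bp after the start, the peak at chr9:118482293-118482493 had 15.2, 21.5, 11.8 and 16.2 in control and 28.8, 37.8, 24.8 and 42.2 in paused libraries. The groups did not overlap, and the log2 change was 1.00 with a standard error of 0.25 (adjusted p = 0.00526). Before the gene, 6643 bp from the start, the peak at chr9:118471446-118471646 had 82.3, 78.8, 94.8 and 74.9 in control and 47.3, 56.8, 62.1 and 51.6 in paused libraries. Those groups did not overlap either, and the mean fell from 82.7 ± 8.61 to 54.4 ± 6.40 (SD, n = 4), a log2 change of -0.60 with a standard error of 0.15 (adjusted p = 0.00615). Both calls held under every alternative run in which the peak was tested.

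The start peak of Eomes was also its strongest, at chr9:118479132-118479332 inside the gene, and had the highest mean of all 53 peaks. It had 156, 229, 227 and 198 in control and 200, 235, 261 and 224 in paused libraries. The groups overlapped, and the log2 change of 0.19 was not called (adjusted p = 0.305). A weaker peak 21967 bp before the start, chr9:118456122-118456322, did not overlap between the groups, with means of 15.2 and 24.3, and missed the threshold (log2 change 0.69, adjusted p = 0.0825). In the window, the peak at chr9:118497061-118497261, nearest to Golga4, which encodes a protein of the Golgi, rose from 73.9 ± 8.80 to 114 ± 20.8 (SD, n = 4), a log2 change of 0.61 (adjusted p = 0.00383). That call was lost with loess correction and with DESeq2, with a highest adjusted p of 0.0689.

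**Figure D3:**
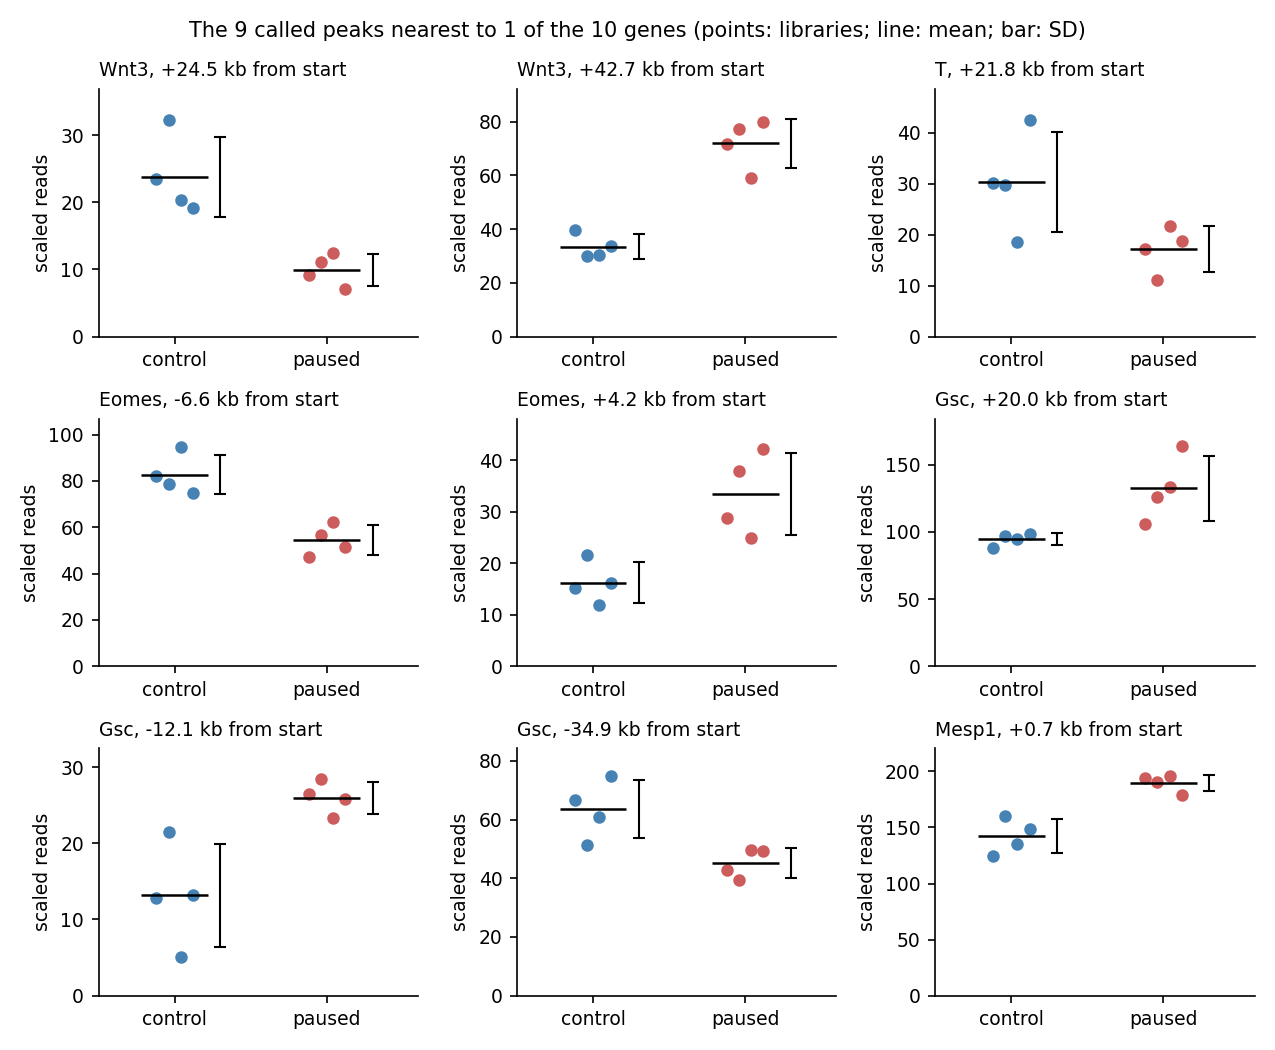
Scaled reads (y axis, from 0) of the 9 called peaks that have 1 of the genes as their nearest, in the 4 control (blue) and 4 paused (red) libraries. Points are libraries, horizontal lines means and vertical bars the SD of 4 libraries; the title of each panel gives the distance from the gene's start. The groups overlap in the T panel and are separate in the other 8.

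Tbx6 is the T-box factor that keeps cells of the presomitic mesoderm from a neural fate. Its window holds many other genes and 24 peaks, of which 13 lay inside a neighbour. The peak nearest to its start, chr7:126780141-126780341, was 1242 bp before the start, inside Ypel3. It had 160, 184, 146 and 163 in control and 148, 175, 132 and 165 in paused libraries. The groups overlapped, with a log2 change of -0.077 (adjusted p = 0.720). In the window 1 peak rose and 1 fell. The peak at chr7:126832225-126832425, nearest to 4930451I11Rik, rose from 172 ± 3.89 to 228 ± 20.5 (SD, n = 4), a log2 change of 0.40 (adjusted p = 0.0129), and was lost with TMM scaling, loess correction, edgeR and DESeq2. The peak at chr7:126739758-126739958, nearest to Mapk3, the gene of the kinase ERK1, fell from 21.5 ± 2.18 to 11.5 ± 4.10 (SD, n = 4), a log2 change of -0.90 (adjusted p = 0.0363). It was lost with loess correction and DESeq2 and without control replicates 1 (adjusted p = 0.0887), 2 (0.0907) or 4 (0.0760) or paused replicates 1 (0.0632), 3 (0.0906) or 4 (0.0731).

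Mixl1 is a paired-type homeobox factor of the streak and its mesendoderm. None of its own 3 peaks was called by limma-trend, edgeR or DESeq2, and 0 had an unadjusted p under 0.05 in limma-trend. The strongest of them, chr1:180696654-180696854, lay inside the gene 280 bp from an end and had 160, 215, 191 and 179 in control and 202, 170, 219 and 200 in paused libraries. The groups overlapped, with a log2 change of 0.088 (adjusted p = 0.666) that was -0.014 after TMM scaling. The other peaks of its own had means of 16.1 and 19.3 scaled reads. In the window 2 peaks fell and 1 rose. The peak inside Acbd3, another gene of a Golgi protein, at chr1:180745970-180746170, had 23.8, 33.4, 23.7 and 33.8 in control and 12.7, 12.6, 12.4 and 19.9 in paused libraries. All paused values lay below all control values, with a log2 change of -0.95 and a standard error of 0.26 (adjusted p = 0.0109), and the call held under every alternative run in which the peak was tested. The peak inside Lin9, at chr1:180647858-180648058, fell from 71.1 ± 3.26 to 49.8 ± 11.8 (SD, n = 4), a log2 change of -0.54 (adjusted p = 0.0251). DESeq2 did not call it, nor did fits without control replicates 1 (adjusted p = 0.0653) or 3 (0.0594) or paused replicate 3 (0.109). The peak at chr1:180725897-180726097, nearest to Acbd3, rose from 214 ± 50.5 to 277 ± 29.0 (SD, n = 4), with overlapping groups, a log2 change of 0.40 and an adjusted p of 0.0289. It was lost with TMM scaling, loess correction, edgeR and DESeq2 and without control replicates 1 (adjusted p = 0.139) or 4 (0.105) or paused replicates 3 (0.0966) or 4 (0.0550).

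Gsc, goosecoid, is the homeobox factor of the anterior streak, the organizer of the embryo. With 12 peaks it had the most of its own, and 2 rose and 1 fell. The strongest, chr12:104453101-104453301, 20035 bp after the start and beyond the gene, had 88.2, 96.7, 94.8 and 98.5 in control and 106, 126, 133 and 164 in paused libraries. The groups did not overlap, and the log2 change was 0.47 with a standard error of 0.13 (adjusted p = 0.0160). The call was lost with TMM scaling, loess correction and DESeq2 and without control replicate 1 (adjusted p = 0.0512) or paused replicate 4 (0.108), within a range of 0.00667 to 0.197 over 16 alternatives.

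The peak 12088 bp before the start of Gsc, chr12:104485224-104485424, had 12.8, 21.5, 5.08 and 13.2 in control and 26.5, 28.4, 23.3 and 25.8 in paused libraries. The groups did not overlap, and the log2 change was 1.07 with a standard error of 0.30 (adjusted p = 0.0147). The value of control replicate 3 stands for 3 reads, and without that library the change was 0.71 and not called (adjusted p = 0.0801). DESeq2 also did not call it. The peak 34897 bp before the start, chr12:104508033-104508233, had 66.7, 51.4, 61.0 and 74.9 in control and 42.7, 39.4, 49.6 and 49.2 in paused libraries, without overlap. It fell with a log2 change of -0.47 and a standard error of 0.17 (adjusted p = 0.0494). That call stood next to the threshold and was lost in 9 of 16 alternatives, namely a pseudocount of 0.1, no filter on low values, DESeq2 and fits without control replicates 1 (adjusted p = 0.132), 3 (0.0732) or 4 (0.156) or paused replicates 1 (0.0931), 2 (0.123) or 4 (0.0648).

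At the start of Gsc, the peak at chr12:104472897-104473097, 239 bp inside the gene, had 64.3, 70.5, 59.3 and 61.7 in control and 70.4, 69.4, 77.6 and 80.8 in paused libraries. Paused replicates 1 and 2 lay just below control replicate 2, and the log2 change of 0.22 was not called (adjusted p = 0.331). A weak peak 48549 bp before the start had means of 17.2 in control and 9.13 in paused libraries, without overlap or call (log2 change -0.88, adjusted p = 0.0742). Beyond the gene, 2 peaks nearest to Serpina3n, the gene of a secreted protease inhibitor, rose. At chr12:104427009-104427209 the mean rose from 94.6 ± 9.79 to 134 ± 19.8 (SD, n = 4), a log2 change of 0.50 (adjusted p = 0.00927), lost with loess correction, with DESeq2 and without paused replicate 4 (adjusted p = 0.0685). At chr12:104433259-104433459 it rose from 127 ± 19.8 to 181 ± 16.9 (SD, n = 4), a log2 change of 0.51 (adjusted p = 0.00518), lost with loess correction and DESeq2.

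Evx1 is an even-skipped type homeobox factor of the posterior streak. None of its own 6 peaks was called in limma-trend on the deposited scale, and the 5 tested had changes between -0.27 and 0.053, with 0 at an unadjusted p under 0.05. The peak nearest to the start, chr6:52315067-52315267, 1669 bp inside the gene, had 108, 111, 102 and 126 in control and 119, 88.3, 135 and 102 in paused libraries. The groups overlapped throughout, with a log2 change of -0.022 (adjusted p = 0.935). The strongest, chr6:52306106-52306306, had 122 ± 7.73 in control and 125 ± 10.3 in paused libraries (SD, n = 4), a log2 change of 0.027 (adjusted p = 0.913). A peak 22236 bp before the start, with means of 110 and 90.7, was not called (log2 change -0.27, adjusted p = 0.184), nor with TMM scaling or DESeq2, but was called lower by edgeR (-0.39, adjusted p = 0.0405) and by limma-trend with loess correction (-0.46, adjusted p = 0.0240). In the window, the peak at chr6:52274036-52274236, nearest to the posterior Hox gene Hoxa13, rose from 52.2 ± 5.18 to 73.7 ± 9.64 (SD, n = 4), a log2 change of 0.49 (adjusted p = 0.0307). It was lost with TMM scaling, loess correction, edgeR and DESeq2 and without control replicates 1 (adjusted p = 0.0864) or 4 (0.0792) or paused replicates 2 (0.0509), 3 (0.0959) or 4 (0.0800).

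Lhx1 is a LIM homeobox factor of the anterior mesendoderm, needed for the head. It had 6 peaks in its window and 5 of its own, and none was called in limma-trend without a block for the replicate number. Of the 5, 1 had an unadjusted p under 0.05 and 0 were called by DESeq2. The start peak, chr11:84525373-84525573, whose upstream part is capitalised in the sequence above, had 103, 90.8, 99.9 and 112 in control and 132, 110, 115 and 104 in paused libraries. The ranges overlapped, and the log2 change of 0.18 had an adjusted p of 0.362. The lowest change was that of a weak peak 14510 bp before the start, with means of 25.2 in control and 14.5 in paused libraries (log2 change -0.80, adjusted p = 0.0748). The edgeR test called this peak (log2 change -1.04, adjusted p = 0.00758), as did limma-trend with the replicate number as a block (adjusted p = 0.0358). That block fit also called the peak inside Aatf higher (log2 change 0.26, limma-trend adjusted p = 0.0379).

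Mesp1 is the factor of the earliest cardiovascular mesoderm. Its start peak rose and was the 1 start peak called among the 10 genes. The peak, chr7:79792749-79792949, lay inside the gene, 741 bp after the start, and was the strongest of its 3. It had 125, 160, 136 and 148 in control and 194, 191, 196 and 179 in paused libraries. The groups did not overlap, and the mean rose from 142 ± 15.3 to 190 ± 7.32 (SD, n = 4), a log2 change of 0.42 with a standard error of 0.12 (adjusted p = 0.0130). The call was lost with TMM scaling, loess correction and DESeq2 and without control replicate 1 (adjusted p = 0.0604), within a range of 0.00675 to 0.226 over 16 alternatives.

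In the window of Mesp1 a peak inside Mesp2, its neighbour and a factor of somite segmentation, also rose. At chr7:79811093-79811293 the mean went from 112 ± 22.6 to 149 ± 12.4 (SD, n = 4), with overlapping groups, a log2 change of 0.42 and an adjusted p of 0.0288. It was lost with TMM scaling, loess correction, edgeR and DESeq2 and without control replicates 1 (adjusted p = 0.139) or 4 (0.0946) or paused replicates 1 (0.0765), 2 (0.0766) or 4 (0.0605).

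Of the 9 called peaks nearest to the genes, 4 calls held under every alternative run, those of Wnt3 and Eomes, and so did 2 of the 14 nearer to another gene, those near Oga and inside Acbd3. An FDR under 0.05 stands in the authors' deposited table for 7 of the 9, the peaks of T and the falling peak of Gsc being the others, with an FDR of 0.0511 and 0.0736.

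Summing the peaks nearest to a gene gave 1 value per gene and library. The median log2 change over the 18113 genes tested was 0.15, with the shares of calls given above for the markers. After TMM scaling those shares were 4.69% higher and 4.32% lower. Of the 9 genes with a sum, 1 was called higher and 0 lower, and after TMM scaling 0 were called. The 1 sum at an unadjusted p under 0.05 after TMM scaling was that of Evx1, which was lower (log2 change -0.19, limma-trend adjusted p = 0.0903). With edgeR and with DESeq2, 0 were called. Groups that do not overlap were found for the gene called higher alone of the 9, and for 27.2% of all genes.

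The called gene was Mesp1, whose sum was 225, 265, 264 and 260 in control and 300, 303, 332 and 288 in paused libraries. The log2 change was 0.27 with a standard error of 0.088 (limma-trend adjusted p = 0.0215). The call was lost with TMM scaling, loess correction, edgeR and DESeq2 and without control replicate 1 (adjusted p = 0.0970) or paused replicate 3 (0.0712), within a range of 0.0111 to 0.489 over 19 alternatives. The 3 genes whose sums followed that of Mesp1 most closely over the 8 libraries were Polr3d, BC049762 and Rpl30, on other chromosomes, with a Pearson coefficient of 0.988, 0.985 and 0.985, given as a description of genes picked for it.

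The other sums did not pass the test. Gsc had 447 ± 14.3 in control and 493 ± 48.9 in paused libraries (SD, n = 4), a log2 change of 0.14 (adjusted p = 0.172). Wnt3, with 1 rising and 1 falling peak, had 234 ± 17.0 and 258 ± 25.1, a change of 0.14 (adjusted p = 0.260). Eomes had 594 ± 39.1 and 622 ± 51.2, a change of 0.067 (adjusted p = 0.485). In all 3 genes called single peaks thus stood beside a sum that was not called. Mixl1 had a change of 0.11 (adjusted p = 0.399), Fgf8 of 0.057 (0.611), Lhx1 of 0.013 (0.920), T of -0.00043 (0.998) and Evx1 of -0.044 (0.666). When all peaks of a window were summed, whatever their nearest gene, Gsc and Mesp1 were called higher. That is 2 of 10 genes, where 50.0% of all genes were called higher in this fit and 0.747% lower. The Gsc window had 841, 838, 821 and 814 in control and 881, 973, 1071 and 1091 in paused libraries, a log2 change of 0.27 (adjusted p = 0.00143), at the 85.6th percentile of all genes. The Mesp1 window had a change of 0.15 (adjusted p = 0.0246), at the 50.6th percentile.

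**Figure D4:**
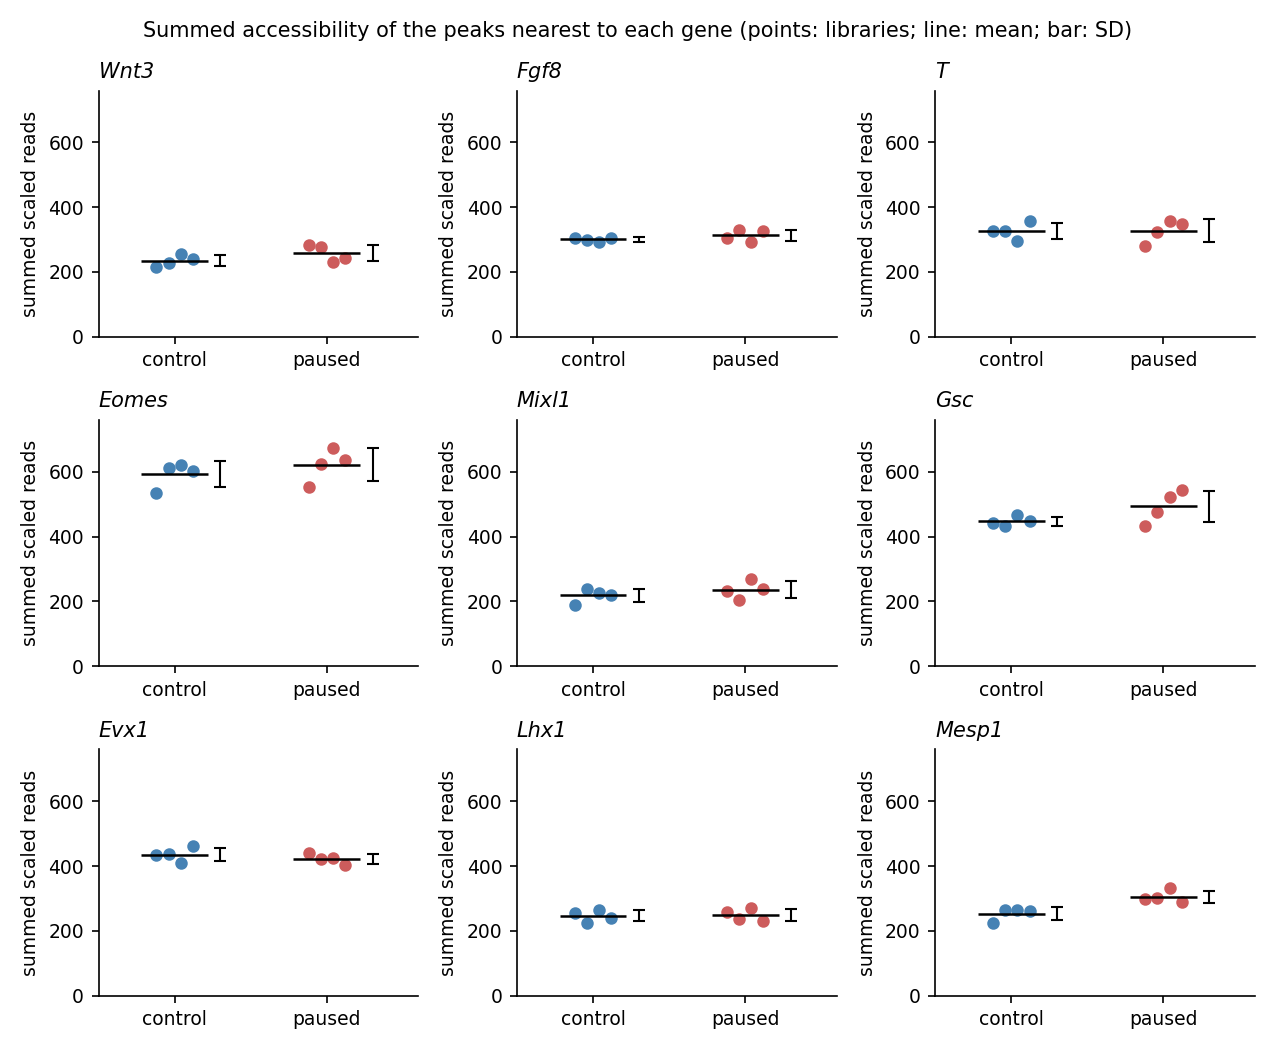
Summed scaled reads (y axis, the same scale from 0 in all panels) of the peaks nearest to each of 9 genes in the 4 control (blue) and 4 paused (red) libraries; Tbx6 has no such peak. Points are libraries, horizontal lines means and vertical bars the SD of 4 libraries. The groups are separate for Mesp1 and overlap for the other 8.

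Stronger peaks had higher changes among the 10 genes as they did over the whole table. The Spearman coefficient of change against mean strength was 0.388 over the 140 peaks and 0.296 over all 127402, given as descriptions across peaks that share their libraries. Over all peaks the median change went from -0.20 in the weakest decile to 0.20 in the strongest. Among the peaks nearest to the genes, the 28 stronger than the median tested peak had a median of 0.095. Of these, 3 (10.7%) were called higher and 2 (7.14%) lower. The 23 weaker ones had a median of -0.016, with 2 called higher and 2 lower, or 8.70% each. All tested peaks had 11.0% called higher and 2.91% lower. Those with a mean of at least 50, a cut above the median, had 18.7% and 1.35%.

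**Figure D5:**
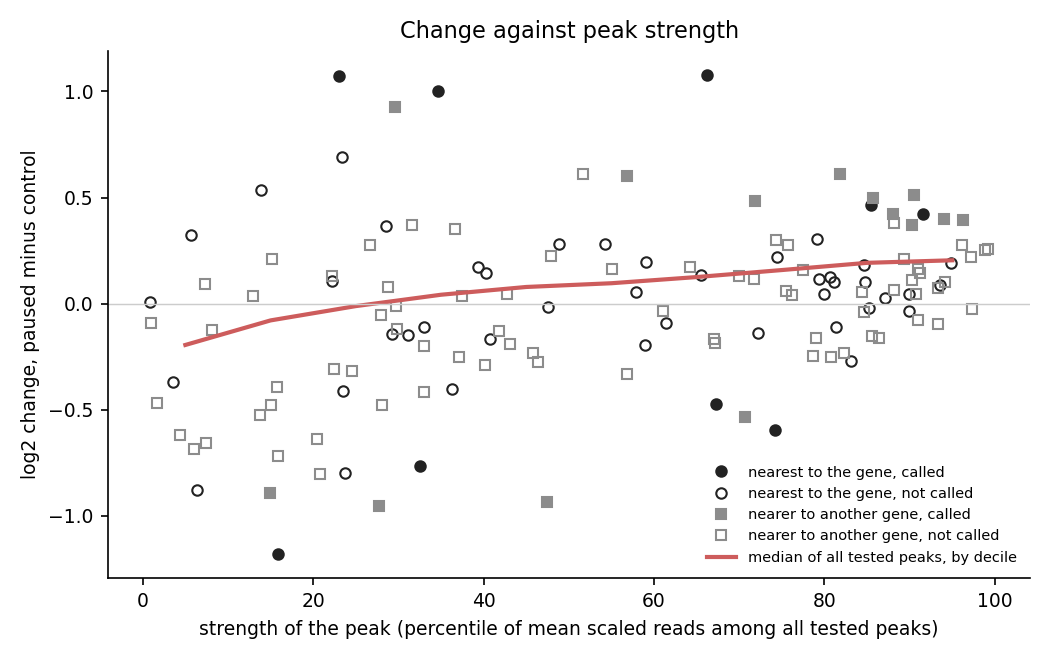
Log2 change (y axis, paused minus control) of the 140 tested peaks against their strength as a percentile of mean scaled reads among all tested peaks (x axis). Black circles are peaks nearest to 1 of the genes and grey squares peaks nearer to another gene, filled where called; the red line joins the medians of all tested peaks by decile of strength, from -0.20 to 0.20. Called peaks lie on both sides of the line, and the called peaks among the strongest lie above it.

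Other genes of the same pathways were taken from a list. It held 50 genes of gastrulation, of which 49 had a peak of their own, with 379 tested peaks. Of these, 54 (14.2%) were called higher and 11 (2.90%) lower, with a median change of 0.12, against 11.0% and 2.91% of all tested peaks. After TMM scaling 28 (7.39%) and 12 (3.17%) were called, against 5.99% and 4.15% of all peaks. The table as a whole thus also had more peaks called higher than lower under both scalings. Signals of the Wnt, Fgf, Nodal, BMP and Notch families had 16 called higher and 1 lower of 72, or 22.2% and 1.39%, and after TMM scaling 10 and 1, or 13.9% and 1.39%. Regulators of mesoderm had 21 and 6 of 144, or 14.6% and 4.17%, and after TMM scaling 9 and 7, or 6.25% and 4.86%. Streak and node genes had 9 and 0 of 60, or 15.0% higher, and after TMM scaling 5 and 0, or 8.33% higher. Wnt effectors had 8 and 4 of 103, or 7.77% and 3.88%, and after TMM scaling 4 and 4, or 3.88% each. The share called higher was below that of all peaks for the Wnt effectors and above it for the other 3 groups, differences that were not tested.

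The 6 peaks of this list with the smallest adjusted p all rose, each with no overlap between the groups. A peak 29306 bp from Dll1, a Notch ligand of the presomitic mesoderm, went from 59.7 ± 5.33 to 145 ± 25.1 (SD, n = 4), a log2 change of 1.25 (adjusted p = 3.24e-07). A peak inside Kdr, the VEGF receptor of early blood and vessel precursors, went from 49.1 ± 6.08 to 118 ± 12.8, also a change of 1.25 (adjusted p = 4.66e-07). A peak inside Wnt3a, the Wnt ligand of the posterior streak, went from 27.2 ± 7.66 to 56.8 ± 5.62, a change of 1.07 (adjusted p = 0.000268). The other peaks lay near Snai1, a repressor of epithelial genes, with a change of 0.95 (while the sum of all 14 peaks of Snai1 had a change of -0.036, and after TMM scaling of -0.18, called lower with an adjusted p of 0.0496), near the ligand gene Bmp4, with 1.06, and near the cardiac factor gene Nkx2-5, with 1.25. All 6 were also called after TMM scaling, with loess correction and with DESeq2.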

How the data were processed

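ATAC-seq was carried out on 4 control and 4 paused samples of E14 cells sequenced as read pairs of 150 bp, per the labels. The submitters' processing notes name FastQC, Trim Galore, Bowtie2 2.4.1, MACS3 3.0.3, DiffBind 3.16.0 and the build mm10, without their roles. How reads were filtered or shifted for the Tn5 offset is not given in the sources used here. The deposited table holds 1 peak set for all samples. Its per-sample values are a signal made by the authors, the reads of a peak over a factor set for each sample: between 99.76% and 100% of the values in each column were whole multiples of 1 step, within 0.0051. The log2 fold and the p-values and FDR of the authors' own comparison were deposited in the same table, per the file headers. Unused per-sample columns numbered 0.

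Since the unit was a signal and not raw counts, limma-trend (limma 3.58.1, R 4.3.3) on log2(value + 1), a pseudocount of 1, was the test, without covariates, for peaks and for sums per gene with a mean of at least 10. Alternatives were a pseudocount of 0.1, no filter, a mean of at least 50, TMM scaling, loess correction (span 0.3), edgeR 4.0.16 with TMM and DESeq2 1.42.0 on the whole reads recovered from the deposited values (edgeR called 9084 peaks higher and 7058 lower), a replicate block, each library left out, a window of 25000 bp and other rules for the nearest gene. The main test was also run on simulated reads in which a set of features was raised or lowered. No shift common to all features was put in, so that run does not cover the choice of scaling. Depth, 4434037 to 21161767 reads in peaks, speaks to counting error at most. It does so less where reads are PCR copies, which are not independent molecules. Whether such copies were removed is not given in the sources used here.

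Gene spans of 21887 protein-coding genes and promoter sequences come from RefSeq tables of GRCm38.p6, which is the assembly of mm10. The tables give no exons, and exonic and intronic peaks are not told apart. Named peaks are, for each gene, that nearest to the start (for Mixl1 and Fgf8, to a gene end), the strongest and all called ones. Called peaks nearer to another gene and the 6 peaks of the wider list with the smallest adjusted p are named too. The genes and lists were chosen with earlier results of these data known. Cdx2, Hand1, Gata4, Gata6 and Sox17 are both in the marker lists and in the wider list.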

Additional observations from a re-analysis of the deposited data

Results flagged for a closer look

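In 8 of 90 groups of 4 libraries 1 library lay far from the other 3, with a gap to the nearest above the critical share of the group's range in Dixon's test; chance gives about 1 in 20 such groups. Control replicate 1 had 21161767 reads in peaks, where the other control libraries had 4434037 to 6262445.

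The other 7 are single values. For the peak 4300 bp before T, control replicate 3 had 118.5 scaled reads, below 135.0 to 136.9 in the other control libraries. For the summed peaks of Mesp1, control replicate 1 had 225.1, below 260.1 to 265.1. Paused replicate 2 had 83.6 at the Eomes window peak nearest to Golga4, below 121.8 to 128.8, and 33.12 at the Fgf8 window peak nearest to Oga, above 17.3 to 19.92. Paused replicate 4 had 19.92 at the Mixl1 window peak inside Acbd3, above 12.41 to 12.69, and 35.15 at the Wnt3 window peak inside Nsf, above 26.81 to 27.93. Paused replicate 1 had 155.7 at the Gsc window peak that starts at 104433259 on chromosome 12, nearest to Serpina3n, below 186.1 to 191.0.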

How the results depend on the processing

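Over all 127402 tested peaks, 13958 were called higher and 3702 lower, and these counts moved too. They were 7631 and 5291 with TMM scaling, 6497 and 4459 with loess correction, 9084 and 7058 with edgeR, and 3902 and 1892 with DESeq2. At a mean of at least 50 they were 10159 and 751 of 45273 peaks. With 1 library left out, 8980 to 12689 were called higher and 2314 to 3871 lower. Of the 140 tested peaks within 50 kb of the 10 genes, 15 were called higher and 8 lower. Only 65 were tested at a mean of at least 50, and only 84 lay in the window of 25000 bp. The higher calls numbered 7 with TMM scaling, 4 with loess correction, 2 with DESeq2, 8 with a window of 25000 bp, and 7 to 17 with 1 library left out. The lower calls numbered 3 at a mean of at least 50, 13 with edgeR, 4 with DESeq2, 3 with the window of 25000 bp, and 4 to 7 with 1 library left out. Among the 51 tested peaks nearest to the genes, 5 higher calls became 3 with TMM, 3 with loess correction and 2 with DESeq2. They numbered 3 to 5 with 1 library left out, and 3 of 23 tested at a mean of at least 50. The 4 lower calls became 2 of 23 tested at a mean of at least 50, 2 with DESeq2, and 2 to 5 with 1 library left out. With all window peaks taken as the genes' own, the calls were 15 and 8. The median change of window peaks, 0.043, was -0.056 with TMM, -0.11 with loess, -0.069 with edgeR and -0.068 with DESeq2. That of the nearest peaks, 0.053, was -0.046, -0.093, -0.036 and -0.031. The median of all tested peaks moved too, from 0.10 to 0.0014, -0.011, -0.0077 and -0.0057 in the same 4 fits. The 1 called gene sum became 0 with TMM, loess, edgeR and DESeq2, 2 with the window of 25000 bp and with all window peaks, and 0 to 1 with 1 library left out. Over all genes, 5364 sums were called higher, and 850, 854, 891 and 518 with TMM, loess, edgeR and DESeq2. They numbered 5075 with the window of 25000 bp and 10116 with all window peaks. For the wider list, 54 higher calls became 28 with TMM, 21 with loess, 34 with edgeR and 17 with DESeq2. With 1 library left out they numbered 34 to 49. The 11 lower calls became 18 with edgeR. At a mean of at least 50, where 167 of the 379 peaks were tested, they numbered 4.

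No called peak or sum changed sign. Uncalled sums did, listed with TMM, loess, edgeR and DESeq2: Eomes -0.079, -0.084, -0.068 and -0.070; Fgf8 -0.089, -0.097, -0.095 and -0.094; Gsc -0.0096, -0.017, -0.0083 and -0.0085; Lhx1 -0.13, -0.14, -0.14 and -0.14; Mixl1 -0.034, -0.036, -0.0054 and -0.014. Wnt3 was at -0.0074 with TMM and -0.012 with loess. The median over all gene sums moved as well, from 0.15 to -0.00022, -0.00076, -0.0023 and -0.0024 with TMM, loess, edgeR and DESeq2. T was at 0.11 and Evx1 at 0.013 over all window peaks, and T at 0.052 by the nearest gene end and 0.042 in the window of 25000 bp. Among uncalled peaks, the strongest of Evx1 was at -0.075, -0.17, -0.077 and -0.077. The Mixl1 peak nearest to a gene end was at -0.014, -0.12, with edgeR above 0, and -0.0040 with DESeq2. With loess the start peaks of Eomes and Lhx1 were at -0.015 and -0.012, and the Fgf8 peak nearest to a gene end at -0.093. With 1 library left out, changes ran from -0.046 to 0.074 for the sum of T, from -0.029 to 0.049 for that of Lhx1, from -0.12 to 0.083 for the strongest peak of T, from -0.026 to 0.068 for that of Evx1, from -0.19 to 0.0022 for that of Wnt3 and from -0.12 to 0.080 for the start peak of Evx1. The cause of these changes was not tested.

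The labels do not say whether the replicate numbers pair the libraries, and the main test did not pair them. Deviations of same-numbered libraries correlated weakly, at 0.079, 0.036, 0.13 and 0.039. Control replicates 1, 3 and 4 correlated best with the paused replicate of their own number, and control replicate 2 with another number. With the replicate block, 19 window peaks were called higher and 9 lower, 5 and 5 among the nearest peaks, 1 gene sum, and 60 and 11 peaks of the wider list. Over all 127402 peaks that fit called 17371 higher and 4623 lower, and over all genes 6607 sums higher. At the lowest depth, 3 reads are worth 5.08 scaled reads, which limits peaks near the minimum of 10.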

Other observations

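Summed over their own peaks, 18 of the 49 wider-list genes were called higher in paused cells and 0 lower, or 36.7%, against 29.6% and 1.40% of all genes, with a median of 0.14 against 0.15. After TMM scaling 8 were called higher and 3 lower, against 4.69% and 4.32% of all genes. The 3 lower genes were Tcf7, a Wnt effector (log2 change -0.22, limma-trend adjusted p = 0.0169), Snai1 (-0.18, adjusted p = 0.0496) and Isl1, a LIM homeobox factor of cardiac progenitors (-0.23, adjusted p = 0.0221), with -0.069, -0.036 and -0.088 and no call before that scaling. The genes named here were chosen after their values were seen. Dll1 went from 491 ± 10.4 to 705 ± 56.5 (SD, n = 4), a log2 change of 0.52 (limma-trend adjusted p = 6.65e-06). Otx2, a homeobox factor of the anterior epiblast, went from 994 ± 65.4 to 1292 ± 48.9, a change of 0.38. Bmp4 went from 833 ± 48.0 to 1104 ± 77.4, a change of 0.40, and Kdr from 399 ± 14.7 to 531 ± 17.6, a change of 0.41. The sums of these 4 genes were also called after TMM scaling. Of the sums of the streak and mesoderm genes described above, 0 were called after that scaling in limma-trend. The 1 at an unadjusted p under 0.05, that of Evx1, was lower, and edgeR and DESeq2 also called 0.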
